A study of Mus musculus with 35 samples.

Results

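Leptin, 4 further hormones and carriers released by fat cells, and 4 genes of the fat droplet and its breakdown were followed in the mouse aorta across 12 groups of genotype, diet and time. The 9 genes were taken by symbol from a table of 14174 genes, and all 9 were found: Lep, Adipoq, Retn, Cfd, Rbp4, Plin1, Fabp4, Lipe and Pnpla2. The 35 libraries came from C57BL/6 mice of 3 genotypes. EKO/hA-I mice lack apolipoprotein E and carry extra human apoA-I, the chief protein of HDL particles. EKO mice lack apolipoprotein E, which lets the liver clear remnant lipoproteins, and WT mice are wild type. In each genotype, mice received a Western diet (WD, TD.88137) or regular chow (4RF21), starting at 8 weeks of age, and were taken after 22 weeks (aged 30 weeks) or 6 weeks (aged 14 weeks). There were 3 libraries in 11 of the 12 groups and 2 in the group of EKO/hA-I mice taken after 6 weeks of chow. The promoter of the human transgene is not given in the sources used here, and the labels name no sex.

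The tissue was the aorta from its root to the iliac bifurcation, perfused with buffer and, per the labels, cleared of the surrounding fat. Total RNA was sequenced, and the authors deposited normalised values per gene and library. Smooth muscle genes were abundant throughout, with Myh11 between 1086 and 10220. Fat cell genes were abundant as well. A pan-adipocyte list of 10 genes, none of them among the 9, had no value below 18.1 in any library, and Ucp1, the uncoupling protein of brown fat, ranged from 603 to 9750. The vessel preparations thus still held fat cell transcripts, and fewer fat cells in a sample and less RNA per fat cell cannot be told apart. For replicate 3 of WT after 22 weeks of WD, the title gives WT but another label gives EKO. The library was kept as WT by its title, and its Apoe level (540.4) lay above that of every library titled EKO or EKO/hA-I. Between 6850000 and 25340000 reads (median 15050000) stood behind a library, as inferred from the step between its low values, and Lep rested on 14 to 1325 such reads.

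Leptin is the satiety hormone of fat, made mainly by large white fat cells and read out by its receptor through JAK2 and STAT3. Adiponectin (Adipoq) is the most abundant hormone of fat cells, resistin (Retn) is a fat cell hormone in rodents, adipsin (Cfd) is complement factor D, and Rbp4 carries retinol in blood. Perilipin 1 (Plin1) coats the fat droplet and guards it from lipases, ATGL (Pnpla2) removes the first fatty acid from a triglyceride and hormone-sensitive lipase (Lipe) the next one, and Fabp4 binds fatty acids inside the cell. In brown fat around vessels, the same lipases feed heat production.

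Promoters of 8 of the 9 genes were matched in RefSeq (GRCm38.p6), as windows of 250 bases before and 50 after the annotated start. Fabp4 had no entry. Those of Lep, Plin1 and Pnpla2 are shown because Lep went its own way across the libraries while Plin1 and Pnpla2 moved together, as the values that follow describe. Lep lies on the plus strand at chr6:29059971-29060270, Plin1 on the minus strand at chr7:79732727-79733026 and Pnpla2 on the plus strand at chr7:141454938-141455237. Capitals mark matches, on either strand, to the letters of the motifs searched.
Lep: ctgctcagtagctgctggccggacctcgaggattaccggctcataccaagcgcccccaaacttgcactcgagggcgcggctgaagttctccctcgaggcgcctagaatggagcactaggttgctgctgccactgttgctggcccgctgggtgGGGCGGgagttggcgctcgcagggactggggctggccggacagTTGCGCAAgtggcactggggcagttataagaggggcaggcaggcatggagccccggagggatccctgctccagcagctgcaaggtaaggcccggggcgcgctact
Plin1: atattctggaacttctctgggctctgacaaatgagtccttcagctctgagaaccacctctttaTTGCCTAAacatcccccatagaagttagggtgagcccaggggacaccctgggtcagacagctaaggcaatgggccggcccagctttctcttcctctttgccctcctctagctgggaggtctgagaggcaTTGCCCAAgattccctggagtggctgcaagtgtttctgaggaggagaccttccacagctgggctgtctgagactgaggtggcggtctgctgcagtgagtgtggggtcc
Pnpla2: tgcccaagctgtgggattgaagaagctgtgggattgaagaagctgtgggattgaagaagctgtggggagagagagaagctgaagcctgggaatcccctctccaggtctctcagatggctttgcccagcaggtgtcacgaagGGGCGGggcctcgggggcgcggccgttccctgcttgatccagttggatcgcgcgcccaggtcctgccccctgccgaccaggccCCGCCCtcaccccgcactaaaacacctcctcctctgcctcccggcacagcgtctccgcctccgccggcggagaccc
Lep held 1 match to the C/EBP-type letters TTGCNNAA, bound by a family of fat cell transcription factors, and 1 to the GC box GGGCGG. Plin1 held 2 C/EBP-type matches and no GC box, whereas Pnpla2 held 2 GC boxes and no C/EBP-type match. Of all 32851 mouse promoters of this length, 10.8% held the C/EBP-type letters and 35.7% the GC box. None of the 3 windows held the TATA box TATAAA (13.6% of all promoters), the E-box CACGTG (7.15%), the nuclear receptor site AGGTCA (16.3%), or the direct repeat of that site spaced by 1 base (0.0396%), which contains it. These are letter matches only and do not show binding.

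Lep varied 40.9-fold between the highest and the lowest library, near Cfd (42.6-fold) and more than any gene of the droplet or of lipolysis. Of its variance on the log2 scale, 75.6% lay between the 12 groups. For the other genes of the set that share ran from 56.9% (Adipoq) to 68.8% (Cfd). EKO/hA-I libraries held 22.7, 15.8 and 10.4 on WD at 22 weeks, 6.89, 7.14 and 7.33 on chow at 22 weeks, 26.2, 29.2 and 25.3 on WD at 6 weeks, and 34.2 and 8.63 on chow at 6 weeks. EKO libraries held 6.49, 9.91 and 15.1 on WD at 22 weeks, 80.97, 25.2 and 23.8 on chow at 22 weeks, 3.19, 4.12 and 2.66 on WD at 6 weeks, and 28.4, 9.27 and 3.83 on chow at 6 weeks. WT libraries held 86.8, 63.2 and 59.4 on WD at 22 weeks, 5.26, 13.5 and 4.11 on chow at 22 weeks, 2.12, 13.3 and 8.41 on WD at 6 weeks, and 15.4, 38.8 and 82.6 on chow at 6 weeks. All 3 WT libraries of 22 weeks of WD stood above all other libraries but 2, 1 of EKO on chow at 22 weeks and 1 of WT on chow at 6 weeks. In order of mean, WT WD 22 weeks came first (69.8 ± 14.8, SD, n = 3), then WT chow 6 weeks (45.6 ± 34.1) and EKO chow 22 weeks (43.3 ± 32.6). EKO/hA-I followed on WD at 6 weeks (26.9 ± 2.03), on chow at 6 weeks (21.4 ± 18.1, n = 2) and after 22 weeks of WD (16.3 ± 6.15), then EKO chow 6 weeks (13.8 ± 12.9) and EKO WD 22 weeks (10.5 ± 4.35). At the low end were WT WD 6 weeks (7.94 ± 5.59), WT chow 22 weeks (7.62 ± 5.12), EKO/hA-I chow 22 weeks (7.12 ± 0.217) and EKO WD 6 weeks (3.32 ± 0.742). Every pair of neighbours in that order overlapped, except the last pair.

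**Figure D1:**
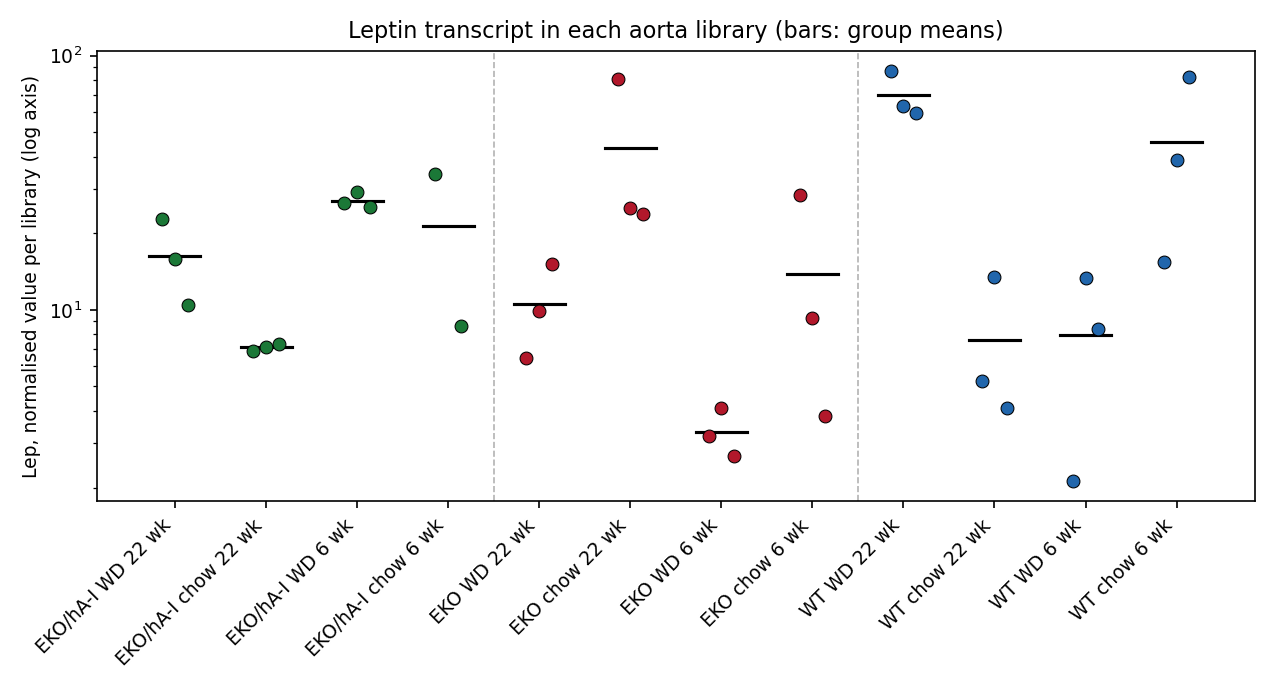
Lep in each of 35 libraries, as the deposited normalised value on a log axis, by group, with bars at the group means. The 3 WT libraries of 22 weeks of WD lie between 59.4 and 86.8, and the 3 EKO libraries of 6 weeks of WD between 2.66 and 4.12.

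After 22 weeks the diet difference of Lep had opposite signs in EKO and in WT aortas, though the call in EKO was weak. Differences here and in what follows are given as log2 ratios of value plus 1 with their SE, from a limma fit across 14157 genes in all 35 libraries, called at an adjusted p (Benjamini-Hochberg over those genes) under 0.05, and their p-values rest on the spread among libraries, which may be technical, since no label says whether a library is 1 animal or a pool. In EKO/hA-I the difference of WD from chow was 1.03 ± 0.63 and was not called (adjusted p = 0.20, 95% interval -0.26 to 2.32). In EKO, Lep fell by 1.78 ± 0.63 on WD against chow (adjusted p = 0.048), with groups that did not overlap. In WT, Lep was 3.17 ± 0.63 higher on WD than on chow (adjusted p = 0.012), also with groups that did not overlap, in a comparison in which 1.36% of all genes were called, and it was the only one of the 9 genes called there. The diet difference of EKO minus that of WT was -4.95 ± 0.89 (adjusted p = 0.001, 6.21% of all genes called), and that of EKO/hA-I minus that of EKO was 2.81 ± 0.89 (adjusted p = 0.017). The WT diet call was lost without WT chow 22 weeks replicate 3 (adjusted p = 0.056) and without WT WD 22 weeks replicates 1 (0.064) and 2 (0.068), and when the 2 groups were fitted alone (0.45). The EKO diet call was lost in 25 of 35 omissions of 1 library (up to 0.23). It was also lost with replicate number as a block (0.055), a pseudocount of 0.1 (0.057) and the 2 groups alone (0.062). The EKO/hA-I minus EKO value was lost without EKO replicate 1 on chow (2.25, 0.059) or on WD (2.53, 0.052) at 22 weeks, and with a term in the fit for the mean level of the pan-adipocyte list (2.49, 0.30) or of a brown adipocyte list (3.54, 0.099), called the pan-adipocyte term and the brown fat term in what follows. With the pan-adipocyte term the EKO diet call was lost as well (0.10). The EKO minus WT value was called in every omission and every alternative run.

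In WT the direction of the diet difference also turned with time. At 6 weeks the difference of WD from chow in WT was -2.34 ± 0.63 and was not called (adjusted p = 0.056, in a comparison calling 1.43% of all genes). The diet difference at 22 weeks minus that at 6 weeks was 0.43 ± 0.94 in EKO/hA-I (adjusted p = 0.80, 3.10% of all genes called), -0.37 ± 0.89 in EKO (0.82) and 5.51 ± 0.89 in WT (0.00072, 9.81% called). The WT value was called in every omission of 1 library and every alternative. In the same WT contrast 5 of 11 brown adipocyte genes (list median -2.35) and 2 of 9 endothelial genes were called lower, and 0 of either list higher. Of 10 pan-adipocyte genes 0 were called (limma, 2 of 10 at an unadjusted p under 0.05). The part of these tissues in the Lep result was not tested. Within the WD groups, WT aortas held 3.22 ± 0.63 more Lep at 22 than at 6 weeks (adjusted p = 0.0048, 6.68% called), where the term for brown fat ended the call (2.82, adjusted p = 0.080). There 3 of 11 brown adipocyte and 4 of 9 endothelial genes were called lower, and 0 of either list higher. EKO aortas on chow held 1.73 ± 0.63 more at 22 than at 6 weeks (adjusted p = 0.042, 27.0% called), lost without EKO chow 6 weeks replicates 2 (0.094) or 3 (0.26) or EKO chow 22 weeks replicate 1 (0.23), and with the brown fat term (0.065), the pan-adipocyte term (0.18) or the 2 groups alone (0.16).

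Genotypes were compared next, within each diet and time. On WD at 22 weeks, EKO aortas held less Lep than WT (-2.67 ± 0.63, adjusted p = 0.0025), in a comparison in which 22.0% of all genes were called, and without the library whose labels disagree the difference was -2.78 (0.0075). EKO/hA-I aortas held less than WT as well (-2.08 ± 0.63, adjusted p = 0.025, with 9.46% of all genes called lower and 8.51% higher), a call that was lost without any 1 of the 3 WT libraries (0.056 to 0.068) or without EKO/hA-I replicates 2 (0.077) or 3 (0.079), and with the brown fat term (0.15). In that comparison 7 of 8 smooth muscle genes were called lower and 0 higher. Higher and never lower were 8 of 12 macrophage, 4 of 9 endothelial and 3 of 11 brown adipocyte genes. The part of these tissues in the calls of that comparison was not tested. The difference of EKO/hA-I from EKO on WD at 22 weeks was 0.60 ± 0.63 and was not called (adjusted p = 0.55, interval -0.70 to 1.89). On chow at 22 weeks the order of the genotypes was another one. EKO stood above WT by 2.28 ± 0.63 (adjusted p = 0.015, 15.3% called) and EKO/hA-I below EKO (-2.21 ± 0.63, adjusted p = 0.011, 28.6% called). EKO chow 22 weeks replicate 1, the highest library of that group, decided both: without it they were 1.72 (0.14) and -1.65 (0.081). The second was also lost with the pan-adipocyte term (-2.03, 0.14), and the first was also lost without WT chow 22 weeks replicates 1 (0.055) or 3 (0.064) and with the 2 groups alone (0.15). At 6 weeks, EKO/hA-I stood above WT on WD (1.90 ± 0.63, adjusted p = 0.040, 16.9% called), which was lost without any EKO/hA-I library (0.074 to 0.10) and without WT replicates 1 (1.27, 0.26) or 3 (0.052). It was also lost with a pseudocount of 5 (0.053), the brown fat term (0.21), the pan-adipocyte term (0.057) and the 2 groups alone (0.075). On WD at 6 weeks the 3 EKO/hA-I libraries (25.3 to 29.2) lay above the 3 EKO libraries (2.66 to 4.12), a difference of 2.70 ± 0.63 that was not called (adjusted p = 0.17) in a comparison that called 0.0706% of all genes.

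Lep was set beside a measure of fat cell RNA. The pan-adipocyte index, the mean log2(value + 1) of Cidec, Plin4, Adig, Pparg, Aqp7, Acvr1c, Agpat2, Adrb3, Gpd1 and Dgat2, ranged from 7.11 to 9.20, and its Pearson r with Lep over the 35 libraries was 0.17, as a description with no test, since the values share libraries and groups. Libraries of EKO WD 22 weeks had an index of 7.81 ± 0.56, WT WD 22 weeks 8.08 ± 0.37 and WT chow 22 weeks 8.15 ± 0.75 (SD, n = 3 each), and 0 of the 10 index genes were called between EKO and WT on WD or between WD and chow in WT at 22 weeks by limma (0 of 10 in both at an unadjusted p under 0.05). With the index as a term in the fit, Lep was still lower in EKO than in WT on WD at 22 weeks (-2.63, adjusted p = 0.0028), higher on WD than on chow in WT (3.18, 0.0063), and its diet difference of EKO minus WT was -4.84 (0.0021). The same term ended 5 other Lep calls, those of EKO/hA-I against EKO on chow at 22 weeks (0.14), the diets in EKO at 22 weeks (0.10), 22 against 6 weeks in EKO on chow (0.18), EKO/hA-I against WT after 6 weeks of WD (0.057) and the diet difference of EKO/hA-I minus EKO (0.30). Of 10 white fat associated genes, 2 were called between EKO and WT on WD at 22 weeks, Sfrp5, a secreted WNT inhibitor (1.91 ± 0.63, adjusted p = 0.030), and Npr3, the clearance receptor of natriuretic peptides (-1.09 ± 0.35, 0.025), and 0 between the diets in WT at 22 weeks (limma; 2 of 10 at an unadjusted p under 0.05). Macrophage genes did move with genotype: all 12 of the list were higher in EKO than in WT on WD at 22 weeks, with an index of 8.65 in EKO and 4.67 in WT. Their part in the Lep difference was not tested. The r of Lep with the macrophage index was -0.02, a value over all 35 libraries of 12 groups, which cannot answer for this 1 comparison. Brown adipocyte genes leaned lower on WD than on chow in WT at 22 weeks (list median -0.54, all genes 0.01). Of 11 such genes 1 was called lower and 0 higher (limma, 3 of 11 at an unadjusted p under 0.05). Between EKO and WT on WD at 22 weeks 0 of the 11 were called (list median -0.20).

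Leptin per unit of fat cell RNA was taken as log2(Lep + 1) minus the index in each library. The index does not tell white from brown fat cells, and a change in their mix was not tested. Genes of the white fat associated list were low, with group means of their index between 2.42 (WT chow 22 weeks) and 3.09 (EKO/hA-I chow 6 weeks). In EKO/hA-I at 22 weeks it was -4.72 ± 0.42 on WD and -4.36 ± 0.27 on chow, and in EKO it was -4.35 ± 0.44 on WD and -3.47 ± 1.20 on chow. It was -1.96 ± 0.39 in WT WD 22 weeks and -5.20 ± 0.36 in WT chow 22 weeks, groups that did not overlap. Averaged over the 3 genotypes, WD minus chow was 0.67 at 22 weeks (exact stratified permutation test, two-sided p = 0.24 over 8000 arrangements, smallest possible 0.00025), made of -0.35 in EKO/hA-I, -0.88 in EKO and 3.25 in WT. At 6 weeks it was -1.34 (exact p = 0.055 over 4000 arrangements, smallest possible 0.0005), made of 0.73 in EKO/hA-I, -2.07 in EKO and -2.69 in WT. Neither average passed 0.05, and the genotypes did not share a direction at either time.

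**Figure D2:**
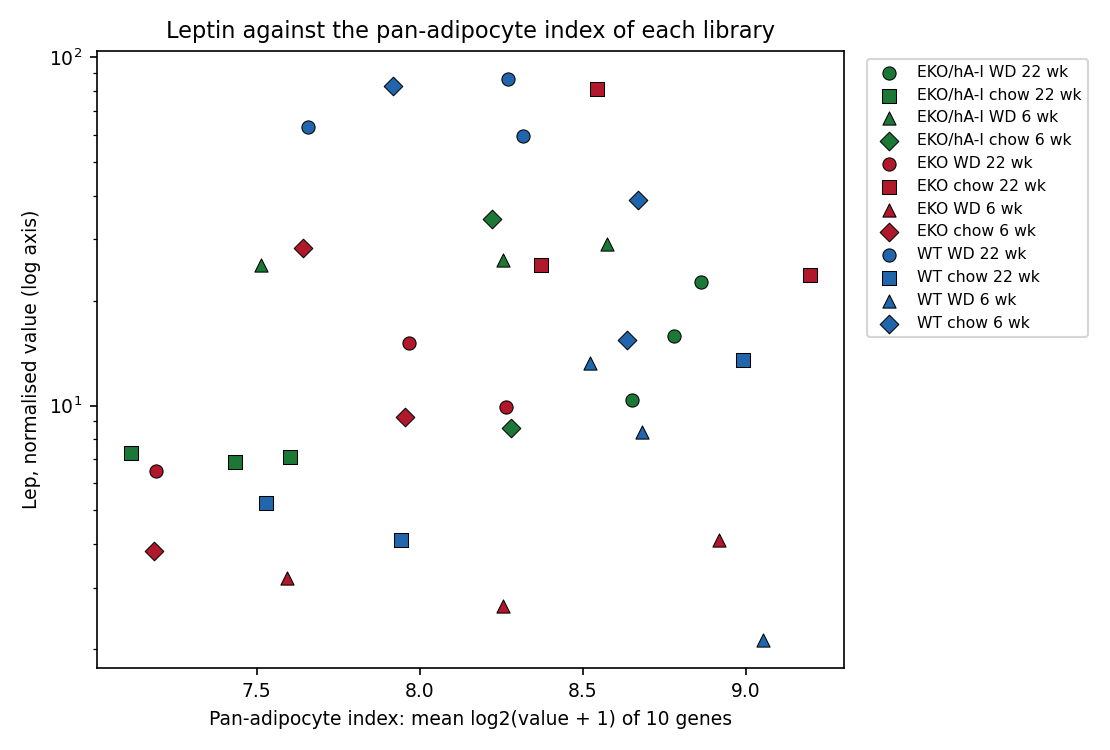
Lep (normalised value, log axis) against the pan-adipocyte index (mean log2(value + 1) of 10 genes) in 35 libraries, colour giving genotype and marker shape diet and time. The 3 WT libraries of 22 weeks of WD sit high on the Lep axis at indices between 7.66 and 8.32, in the middle of the index range.

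Genes for receptors and carriers of leptin, adiponectin and retinol were followed beside the hormones. Between EKO and WT on WD at 22 weeks, 6 of 13 measured ones were called, 4 higher and 2 lower (list median 0.27, all genes -0.01), where 22.0% of all genes were called. The cells that held these transcripts were not resolved. Lepr, the leptin receptor, was lower in EKO than in WT (9.93 ± 3.69 against 29.2 ± 1.47, log2 -1.52 ± 0.30, adjusted p = 0.00041). Socs3, which blocks the receptor's signal, was higher (89.8 ± 22.8 against 9.20 ± 1.68, 3.13 ± 0.30, adjusted p = 8.57e-09), as were the phosphatase Ptpn1 (1.93 ± 0.14) and Stat3 (0.97 ± 0.11). Stra6l, a receptor for Rbp4, was 4.57 ± 0.43 higher in EKO. Socs3 and Stat3 also answer cytokines other than leptin, and macrophage genes moved with these genes as given for the same comparison. In the diet comparison of WT at 22 weeks, in which Lep was called, 0 of these 13 genes and 0 of 22 lipolysis control genes were (limma; 0 of 13 and 4 of 22 at an unadjusted p under 0.05). Other secreted adipokines were called in 6 of 14 cases between EKO and WT on WD at 22 weeks, 5 higher and 1 lower, with the BMP antagonist Grem1 at 3.29 ± 0.44, Metrnl at 1.86 ± 0.25 and the iron-binding lipocalin Lcn2 at 4.36 ± 0.64.

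Resistin and adipsin moved as a pair, apart from leptin. Their r over the 35 libraries was 0.89, while their r with the pan-adipocyte index was 0.20 (Retn) and 0.27 (Cfd). The pair was not apart from Adipoq, whose r was 0.68 with Retn and 0.72 with Cfd. In EKO/hA-I at 22 weeks Retn held 136, 57.1 and 37.2 on WD and 25.0, 61.6 and 22.9 on chow. In EKO it held 111, 15.8 and 37.9 on WD and 251, 170 and 108 on chow. EKO on chow at 22 weeks was the only group of the 12 whose libraries all lay above those of the group next in order. In WT it held 43.6, 13.6 and 15.2 on WD and 83.8, 86.1 and 22.6 on chow. EKO on WD lay below EKO on chow apart from replicate 1, which reached 111. Cfd held 3946, 1767 and 1604 in EKO on chow at 22 weeks and 417, 92.6 and 121 in WT on WD at 22 weeks, the 2 ends of its range over groups.

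Cfd was higher in EKO than in WT on WD at 22 weeks (839 ± 333 against 210 ± 180, SD, n = 3 each, log2 2.25 ± 0.62, adjusted p = 0.0087), the reverse of Lep. It was higher in EKO/hA-I than in WT as well (1088 ± 497 against 210 ± 180, 2.59 ± 0.62, adjusted p = 0.0069). Without WT WD 22 weeks replicate 2, the lowest of all libraries, both calls were lost (1.83, adjusted p = 0.066, and 2.17, 0.051), and the second was also lost with a term for brown fat (1.85, 0.092). On chow at 22 weeks, EKO/hA-I stood below EKO in Retn (-2.30 ± 0.66, adjusted p = 0.012) and in Cfd (-2.20 ± 0.62, 0.010). These were lost without EKO chow 22 weeks replicate 1 (Retn 0.055, Cfd 0.062) or EKO/hA-I chow 22 weeks replicate 3 (Retn 0.060, Cfd 0.070), and with the terms for pan-adipocyte genes (0.15 and 0.24) or brown fat (0.12 and 0.17). In the average of the 3 genotypes at 6 weeks, Retn (-1.38 ± 0.39, adjusted p = 0.0446) fell with WD and so did Cfd (-1.29 ± 0.37, 0.0447), where 4.89% of all genes were called, and 0 of the 10 pan-adipocyte genes were (limma; 2 of 10 at an unadjusted p under 0.05). Those calls, just inside the threshold, were lost in 15 (Retn) and 13 (Cfd) of 35 omissions of 1 library, and that of Cfd with the compared groups alone (0.073). In the average at 22 weeks, which called 14.6% of all genes, 0 of the 9 genes were called (limma; 3 of 9 at an unadjusted p under 0.05).

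Within groups, Retn was higher in libraries without Y-linked transcripts, a comparison added after its values had been seen. The mean of Ddx3y, Eif2s3y, Kdm5d and Uty was at most 1.33 in 12 libraries and at least 38.2 in the other 23. In those 12 libraries Retn had a lowest, median and highest value of 30.7, 97.4 and 251, and in the 23 of 11.7, 37.0 and 108. With the 12 groups in the fit, libraries without Y-linked transcripts held 1.18 ± 0.19 more Retn (log2, adjusted p = 0.0016) and did so in 11 of 11 groups that had both kinds, while 0.544% of all genes were called. Cfd differed by 0.90 ± 0.22 (adjusted p = 0.073, higher in 10 of 11 groups) and Lep by -0.19 ± 0.29 (0.84, higher in 5 of 11). Of the 12 libraries, 9 were replicate 1, 3 were replicate 2 and 0 replicate 3, so replicate number and Y-linked transcripts are largely confounded, and with the number as a block the Retn difference was 1.01 (adjusted p = 0.20). EKO on chow at 22 weeks had 2 such libraries and EKO/hA-I on chow at 22 weeks had 0. With the term, the difference of EKO/hA-I from EKO there was -1.52 for Retn and -1.60 for Cfd, both still called.

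Rbp4 varied least, 3.25-fold between the highest and lowest library. EKO aortas on WD at 22 weeks held the least (63.0, 68.8 and 96.0), against 186, 120 and 150 in WT on the same diet and time and 159, 194 and 94.9 in EKO on chow, so EKO and WT did not overlap and the diets within EKO did. The difference of EKO from WT was -0.99 ± 0.24 (adjusted p = 0.0031), and it was called in every omission of 1 library and every alternative. Within EKO, Rbp4 fell by 0.93 ± 0.24 on WD against chow at 22 weeks (adjusted p = 0.0073) and by 0.83 ± 0.24 at 22 against 6 weeks of WD (adjusted p = 0.019, 13.4% of all genes called). The first was lost without EKO chow 22 weeks replicate 2 (0.060) or EKO WD 22 weeks replicate 1 (0.055) and with the 2 groups fitted alone (0.080). The second was lost without EKO WD 22 weeks replicates 1 (0.099) or 2 (0.068) or EKO WD 6 weeks replicates 2 (0.058) or 3 (0.083). On WD at 6 weeks EKO/hA-I stood below WT in Rbp4 (-0.86 ± 0.24, adjusted p = 0.017), lost without WT replicate 3 (0.052) or EKO/hA-I replicates 1 (0.088) or 3 (0.068), and with the brown fat term (0.075) or the 2 groups alone (0.069), in a comparison with 11 of 12 macrophage genes higher. The r of Rbp4 over libraries was -0.50 with the macrophage index and 0.35 with the pan-adipocyte index. The part of macrophage RNA in the Rbp4 differences was not tested.

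**Figure D3:**
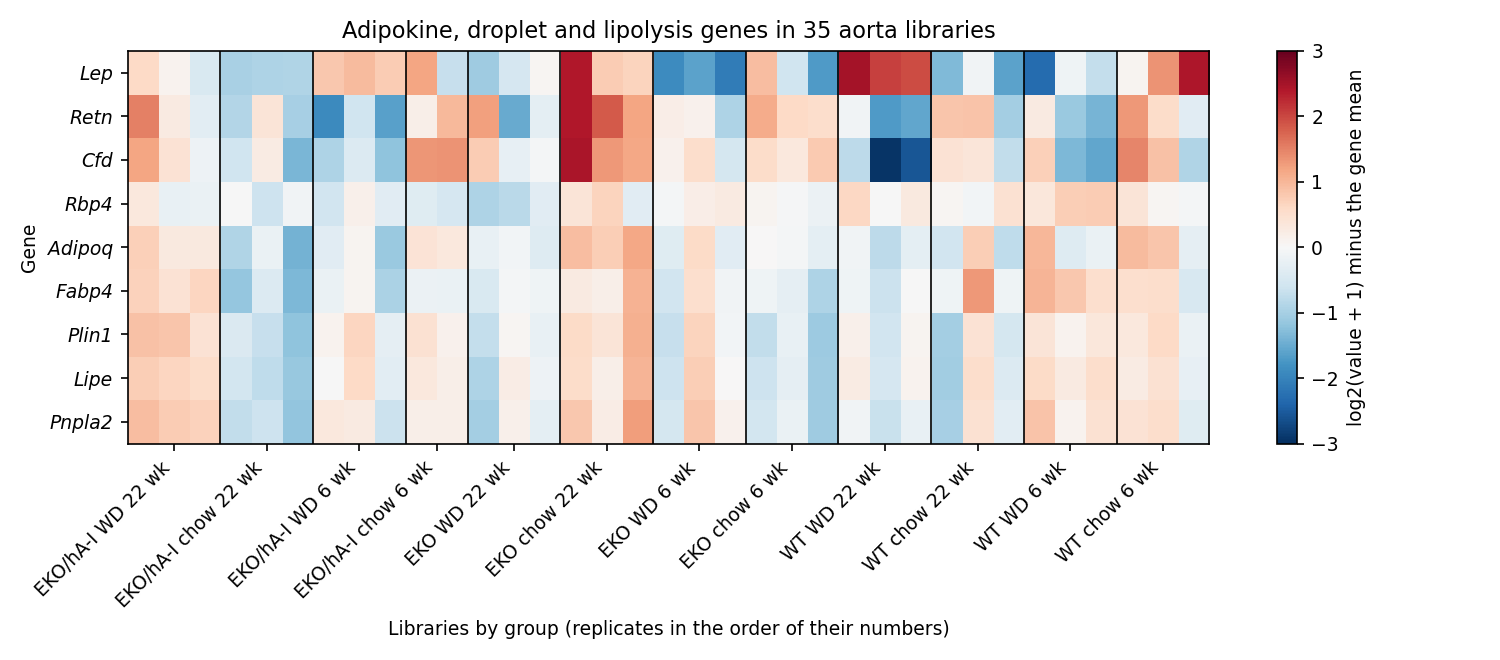
The 9 genes in 35 libraries, coloured by log2(value + 1) minus each gene's mean, with libraries ordered by group and replicate number. Adipoq, Fabp4, Plin1, Lipe and Pnpla2 are low together in EKO/hA-I on chow at 22 weeks and high together in EKO on chow and EKO/hA-I on WD at 22 weeks, while Lep is high in WT on WD at 22 weeks.

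The droplet and lipolysis genes rose and fell as a block with the other fat cell genes. Over the 35 libraries, the r with the pan-adipocyte index was 0.97 for Pnpla2, 0.96 for Lipe, 0.93 for Plin1, 0.91 for Fabp4 and 0.79 for Adipoq, and Plin1 and Lipe correlated at 0.98 with each other. Taken as deviations from group means, the r with the index was still between 0.80 and 0.97 for the 5 genes. The points share libraries and depth, and some share groups, so these are descriptions. In EKO/hA-I at 22 weeks Pnpla2 held 2486, 2218 and 2104 on WD and 782, 844 and 573 on chow, and in EKO 638, 1443 and 1055 on WD and 2277, 1509 and 3102 on chow. The diets did not overlap in either genotype, and stood in opposite order.

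**Figure D4:**
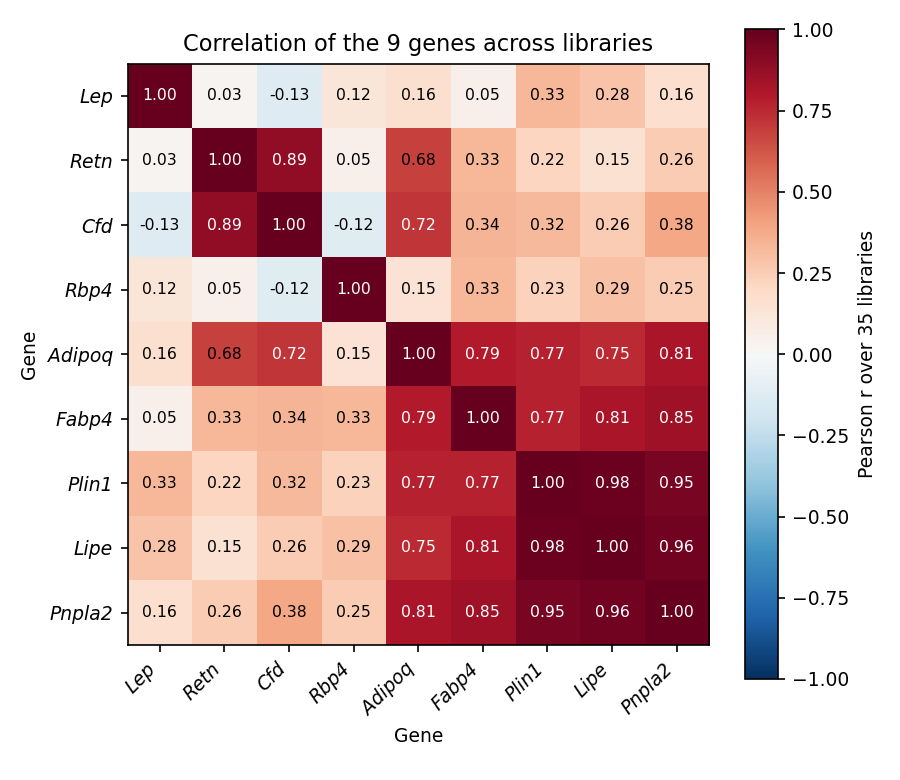
Pearson r of log2(value + 1) between each pair of the 9 genes over 35 libraries. Plin1, Lipe and Pnpla2 form a block with r of 0.95 to 0.98, Retn and Cfd form another pair at 0.89, and Lep has no r above 0.33.

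The 2 genotypes without apolipoprotein E differed most on chow at 22 weeks. EKO/hA-I lay below EKO in 8 of the 9 genes, all but Rbp4, against 28.6% of all genes called (14.9% lower). The log2 differences were -1.78 ± 0.40 for Adipoq (233 ± 101 against 764 ± 114, adjusted p = 0.0027), -1.60 ± 0.38 for Pnpla2 (733 ± 142 against 2296 ± 797, 0.0040), -1.47 ± 0.38 for Fabp4 (0.0064), -1.46 ± 0.35 for Plin1 (0.0044) and -1.40 ± 0.36 for Lipe (0.0066). These 5 calls held in every omission of 1 library, and the 2 groups did not overlap in any of the 5 genes. The other fat cell genes moved with them: 7 of 10 pan-adipocyte genes and 7 of 11 brown adipocyte genes were lower, and 0 of either list higher. Of 22 lipolysis control genes 9 were lower and 2 higher, among the lower ones G0s2, the inhibitor of Pnpla2 (-2.09 ± 0.38, adjusted p = 0.00068), the droplet protein Plin5 (-1.79 ± 0.42), the beta-adrenergic receptor Adrb1 (-1.72 ± 0.43) and Plin2 (-1.34 ± 0.36). The list median was -0.999, against -0.04 for all genes, and 8 of 12 macrophage genes were lower as well. With the pan-adipocyte index as a term, the differences of the 5 genes lay between -0.62 (Adipoq, adjusted p = 0.25) and -0.13 (Lipe, 0.62) and none was called, nor with the brown fat term (0.052 to 0.16).

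On WD at 22 weeks the direction was the other one. EKO/hA-I stood above EKO in Plin1 (819 ± 132 against 412 ± 110, 1.01 ± 0.35, adjusted p = 0.045) and Pnpla2 (2270 ± 196 against 1045 ± 403, 1.19 ± 0.38, 0.030), 2 of 9 genes where 18.8% of all were called. Both calls were weak: Plin1 lost it in 11 of 35 omissions, Pnpla2 without EKO WD 22 weeks replicates 1 (0.88, adjusted p = 0.20) or 3 (0.060) or any EKO/hA-I library (0.051 to 0.097), and both with the pan-adipocyte term (log2 0.13 and 0.22) and the brown fat term (0.11 and 0.16), and Pnpla2 with the 2 groups alone (adjusted p = 0.055). In the same comparison 6 of 8 skeletal muscle and 4 of 11 brown adipocyte genes were higher and 11 of 12 macrophage genes lower, and their part in the result was not tested. At 6 weeks of either diet, no gene of the 9 was called between EKO/hA-I and EKO (limma; 1 of 9 on WD, Lep, and 2 of 9 on chow, Plin1 and Lipe, had an unadjusted p under 0.05). These comparisons called 0.0706% and 0.0777% of all genes.

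Adipoq and Pnpla2 differed with the diet in opposite directions in EKO/hA-I and EKO aortas at 22 weeks. In EKO/hA-I, 5 of 9 genes rose with WD, by 1.27 ± 0.40 (Adipoq, adjusted p = 0.014), 1.57 ± 0.38 (Fabp4, 0.0031), 1.498 ± 0.35 (Plin1, 0.0027), 1.46 ± 0.36 (Lipe, 0.0036) and 1.65 ± 0.38 (Pnpla2, 0.0025), in a comparison that called 38.2% of all genes, 20.7% as higher. Pan-adipocyte genes rose in 7 of 10 and brown adipocyte genes in 9 of 11 cases, and 12 of 22 lipolysis control genes rose and 2 fell, with G0s2 at 2.19 ± 0.38 and Plin2 at 2.06 ± 0.36. Endothelial genes rose in 6 of 9 cases, skeletal muscle genes in 8 of 8 and smooth muscle genes fell in 7 of 8 cases in the same comparison, with a skeletal muscle index of 7.17 on WD and 1.53 on chow, and the part of these tissues in the result was not tested. With the pan-adipocyte term the 5 differences lay between 0.05 (Adipoq) and 0.29 (Fabp4) and none was called, and none with the brown fat term (0.66 to 0.89), where that of Adipoq turned to -0.12. Adipoq also lost its call without EKO/hA-I chow replicate 3 (0.99, adjusted p = 0.093) or WD replicate 1 (0.057) at 22 weeks.

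In EKO, 5 of 9 genes fell with WD at 22 weeks, namely Lep, Rbp4, Retn (-1.999 ± 0.66, adjusted p = 0.033), Adipoq (-1.17 ± 0.40, 0.041) and Pnpla2 (-1.15 ± 0.38, 0.036), where 18.7% of all genes were called and 4.80% lower. Adipoq held 339, 373 and 304 on WD and 746, 659 and 886 on chow, without overlap. The Adipoq call was lost without any 1 of the 6 libraries compared (0.055 to 0.13), the Pnpla2 call without replicates 1 or 3 of either group (0.066 to 0.24), and the Retn call without EKO chow replicates 1 (0.12) or 2 (0.073) or EKO WD replicates 2 (0.18) or 3 (0.082). The pan-adipocyte term ended the calls of Adipoq (0.36), Pnpla2 (0.17), Lep (0.10) and Retn (0.082), and the brown fat term those of Adipoq (0.096) and Retn (0.074). Adipoq was also lost with the term for Y-linked transcripts (0.055). With the compared groups alone, Pnpla2 (0.096), Retn (0.095), Rbp4 and Lep (0.062) were lost. Of the 10 pan-adipocyte genes 2 fell as well, Dgat2 and Adig, while all 12 macrophage genes rose.

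**Figure D5:**
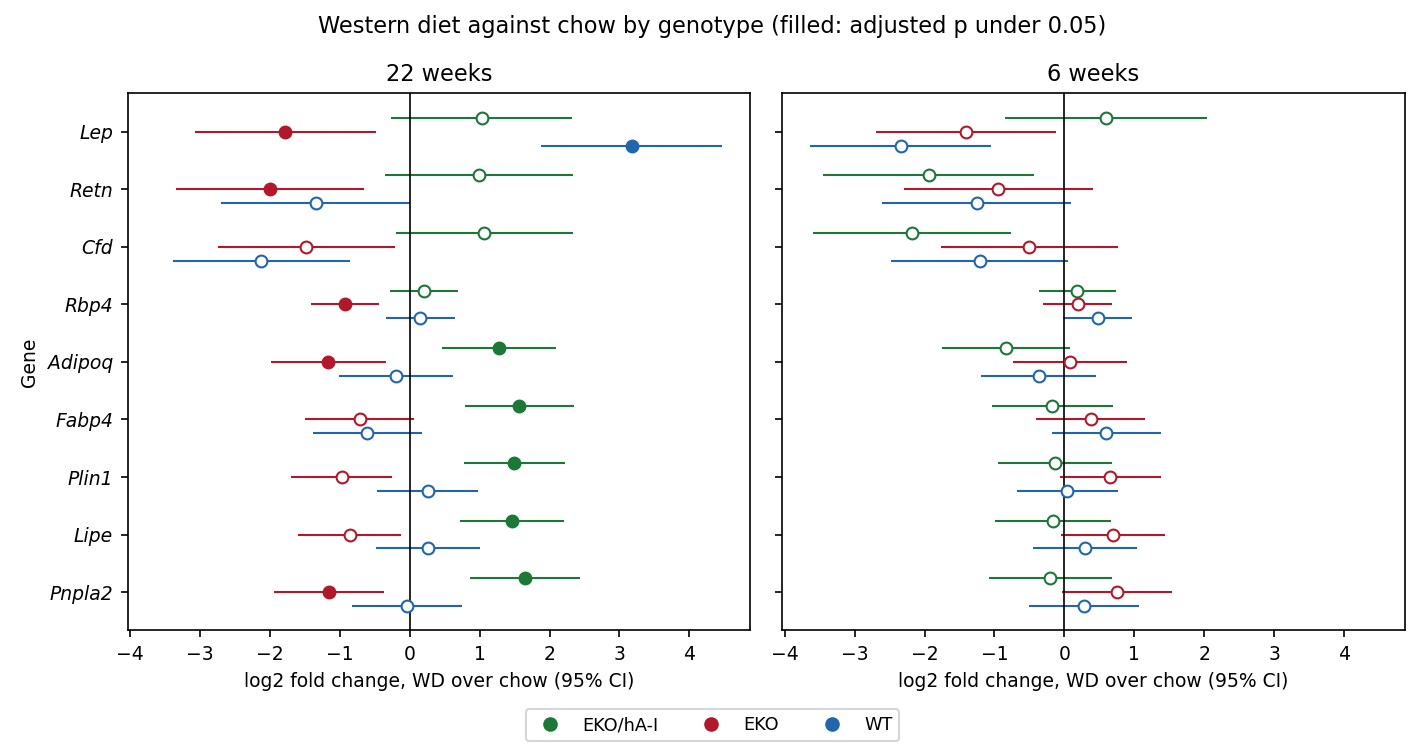
WD over chow as log2 fold change with 95% intervals for the 9 genes, by genotype, at 22 weeks (left) and 6 weeks (right), filled where the adjusted p was under 0.05. At 22 weeks the EKO/hA-I points lie to the right of the EKO points in all 9 genes, and Lep in WT lies at 3.17, while no point is filled at 6 weeks.

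The difference between these diet responses was tested directly. The diet difference in EKO/hA-I minus that in EKO at 22 weeks was called higher for all 9 genes, and for 34.2% of all genes in either direction, with values from 1.13 ± 0.34 (Rbp4, adjusted p = 0.012) to 2.99 ± 0.93 (Retn, 0.015), and 2.80 ± 0.54 for Pnpla2 (0.00064). Adipoq, Rbp4, Plin1, Fabp4, Lipe and Pnpla2 were called in every omission of 1 library. Retn was lost without EKO WD replicate 2 (0.051) or EKO/hA-I WD replicate 1 (0.053), and Cfd without EKO chow replicate 1, EKO WD replicates 2 or 3, EKO/hA-I chow replicate 3 or EKO/hA-I WD replicate 1 (0.051 to 0.080), all at 22 weeks. With the pan-adipocyte term none of the 9 was called, the adjusted p ranging from 0.23 (Rbp4) to 0.81 (Fabp4), and the brown fat term ended all 9 as well (0.099 to 0.64). In the same contrast 8 of 8 skeletal muscle, 9 of 10 pan-adipocyte and 9 of 11 brown adipocyte genes were called higher, and their part in the result was not tested. Against WT, the EKO/hA-I diet difference at 22 weeks was larger for Cfd (3.19 ± 0.87, adjusted p = 0.010), Fabp4 (2.18 ± 0.54, 0.0057) and Pnpla2 (1.68 ± 0.54, 0.024), where 26.8% of all genes were called. The pan-adipocyte term (0.083 to 0.56) and the brown fat term (0.51 to 0.80) ended these 3 calls, and that of Pnpla2 was also lost without WT chow replicate 2 (1.31, 0.092), WT WD replicate 2 (0.069) or EKO/hA-I chow replicate 3 (0.065) at 22 weeks. In that contrast with WT, 10 of 11 brown adipocyte, 5 of 9 endothelial and 4 of 10 pan-adipocyte genes were called higher and 0 lower. Smooth muscle genes were lower in 7 of 8 cases and higher in 1. The part of these tissues in the result was not tested. Within EKO, the diet difference at 22 minus that at 6 weeks was negative for Rbp4, Plin1, Lipe and Pnpla2 (-1.12 to -1.90, 19.3% called), each lost without EKO WD 22 weeks replicate 1 (adjusted p 0.070 to 0.13) or EKO chow 6 weeks replicate 3 (0.057 to 0.10). Plin1, Lipe and Pnpla2 were also lost without EKO chow 22 weeks replicate 3 or EKO WD 6 weeks replicate 2 (0.054 to 0.12), Rbp4 and Lipe without EKO WD 6 weeks replicate 3 (0.053 and 0.058), Rbp4 without EKO chow 22 weeks replicate 2 (0.066) and Lipe without replicate 1 of that group (0.051). All 4 were lost with the brown fat term (0.072 to 0.86), the pan-adipocyte term (0.078 to 0.89) and the compared groups alone (0.058 to 0.089), and 7 of 11 brown adipocyte and 5 of 10 pan-adipocyte genes were lower in the same contrast. EKO on chow had more Plin1 (1.37 ± 0.35), Lipe (1.23 ± 0.36), Pnpla2 (1.36 ± 0.38) and Adipoq (1.06 ± 0.40) at 22 than at 6 weeks (27.0% called). These were lost without EKO chow 6 weeks replicate 3 (Plin1 0.056, Lipe 0.094, Pnpla2 0.081), those of Lipe (0.081) and Pnpla2 (0.069) also without EKO chow 22 weeks replicate 3, and Adipoq in 24 of 35 omissions. The brown fat term ended all 4 calls (0.24 to 0.99), as did the pan-adipocyte term (0.14 to 0.90). That of Adipoq was also lost with the term for Y-linked transcripts (0.067) and with median-ratio rescaling (0.052). In the same comparison 8 of 11 brown adipocyte, 5 of 10 pan-adipocyte and 8 of 12 macrophage genes were higher and none of them lower.

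In comparisons within 6 weeks, 0 of the 9 genes were called between EKO and WT on WD (5.44% of all genes called; limma, 1 of 9 at an unadjusted p under 0.05) or on chow (4.97%; 4 of 9), or between EKO/hA-I and WT on chow (0.0636% higher and 0.0565% lower; 1 of 9). Between the diets at 6 weeks, 0 of 9 were called in EKO/hA-I (0.00706%; 2 of 9), in EKO (0.0848%; 1 of 9) and in WT (1 of 9). Between 22 and 6 weeks, 0 of 9 were called in EKO/hA-I on WD (0.0706%; 5 of 9) or on chow (0.00706%; 5 of 9) and in WT on chow (0.0353% higher and 0.0848% lower; 1 of 9). Differences of the diet effect between genotypes at 6 weeks were called for 0.00% of all genes in each of the 3 pairs of genotypes.

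Other single calls were few. Plin1 was higher in EKO than in WT on chow at 22 weeks (807 ± 206 against 418 ± 224, 1.05 ± 0.35, adjusted p = 0.045), lost in 10 of 35 omissions and with the 2 groups alone (0.26). Pnpla2 was higher in EKO/hA-I than in WT on WD at 22 weeks (1.13 ± 0.38, 0.042), lost without any 1 of the 6 libraries compared (0.052 to 0.16) and with the brown fat term (0.64). There 3 of 11 brown adipocyte genes were called higher and 0 lower, and 7 of 8 smooth muscle genes lower and 0 higher. Fabp4 was lower in EKO/hA-I than in WT on chow at 22 weeks (-1.32 ± 0.38, 0.022, 13.8% called) and on WD at 6 weeks (-1.13 ± 0.38, 0.042). The first was lost without WT chow 22 weeks replicate 2 (-0.85, adjusted p = 0.18), whose Fabp4 of 8510 was the highest of all libraries, or EKO/hA-I replicates 1 (0.072) or 3 (0.10), and the second without WT replicates 1 (0.17) or 2 (0.076) or EKO/hA-I replicates 1 (0.072) or 3 (0.23). Both were also lost with the brown fat term (0.60 and 0.58) and with the 2 groups alone (0.23 and 0.10). In the first comparison 5 of 11 brown adipocyte and 2 of 10 pan-adipocyte genes were called lower. In the second 3 of 11 and 1 of 10 were, with 0 of either list higher in both. Their part in the Fabp4 calls was not tested. Over the 24 comparisons of 2 groups, 40 of 216 tests of the 9 genes were called (18.5%), against 10.5% of the tests of all genes, and the same control libraries enter several of the comparisons.

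The genes whose pattern over the 35 libraries was most like each of the 9 were sought among 10590 genes of moderate or higher level by Pearson r, with no test. For Lep they were Mturn (0.73), Klhdc7a (0.71), Ptger3 (0.70), Gypc (0.66) and Med30 (0.64), and none of the 9 genes came among them. For Retn they were Cfd (0.89), Car3 (0.88), Car5b (0.84), Slc7a10 (0.81) and Ces1f (0.80), of which Cfd shared Car3 (0.86), Slc7a10 (0.83) and Ces1f (0.86). Adipoq was closest to Gstz1 (0.95) and Aldh6a1 (0.94), Rbp4 to Ccnd3 (0.74) and Polr2c (0.72), and Fabp4 to Fam213a (0.95) and Dnajc15 (0.95). Plin1 was closest to Lipe (0.98), Lipe to Plin1, and Pnpla2 to Eci1 (0.97) and Fam73b (0.96), so that Lep and Rbp4 had looser neighbours than the other 7 genes.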

How the data were processed

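Total RNA of mouse aorta was measured in 35 libraries of 12 groups. The authors deposited 1 table of normalised signal, with columns adding to between 907492 and 1137737. Per the submitters' processing notes, Bowtie 0.12.2, Bowtie2, RSEM and the builds mm8 and mm9 were involved, with no role or order given. The table gives symbols alone, so reads shared with similar genes could not be traced. Of values at or below 1.5, between 71.9 and 82.1% in a library lay within 0.02 of a whole number of reads, so reads could not be recovered and count tools were not used. The reads per library, inferred from the step between low values, are approximate. Counting error is not given, since the values are no counts.

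Values were tested as log2(value + 1) with limma 3.58.1 (R 4.3.3; intensity trend, robust) in 1 fit of 12 groups without covariates, after removal of 17 genes that reached 1 in fewer than 3 libraries. The fit and the permutation test were tested on simulated data. There were 24 comparisons of 2 groups, 2 diet contrasts averaged over genotypes and 9 differences of differences, each adjusted over 14157 genes, two-sided. Tests of the pan-adipocyte index used log2(Lep + 1) minus the index, exchanging diets within genotypes.

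The 9 genes, the gene lists and the tests were chosen with earlier results of these data known. Described were all 9 genes and, from each list, up to 4 members of smallest p. Lepr was named outside that rule, as the leptin receptor. The lists were pan-adipocyte, brown adipocyte, lipolysis control, other secreted adipokines, receptors and carriers, white fat associated, macrophage, endothelial, smooth muscle, skeletal muscle and Y-linked genes. Alternatives were each library left out, a replicate block, pseudocounts of 0.1 and 5, no filter, terms for brown fat (mean of its list), for the pan-adipocyte index and for Y-linked transcripts, median-ratio rescaling, and the compared groups alone. Libraries of the same replicate number had deviations correlated above 0.1 in all 3 pairs of 2 comparisons of 22 against 6 weeks. These were EKO on WD (0.12 to 0.44) and WT on WD (0.13 to 0.34). No label pairs these libraries, and the 2 sides were aortas taken at different ages. In each of these groups replicate 1 was a library without Y-linked transcripts, whose part in the correlations was not tested. The block changed no call of the 9 genes there. Likeness was sought among genes with a mean log2(value + 1) of at least 3. Figures used Python 3.11.15 and matplotlib 3.10.9.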

Additional observations from a re-analysis of the deposited data

Results flagged for a closer look

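The diet difference (WD minus chow, log2) itself differed between genotypes or times in 18 of 81 tests of the 9 genes (limma, adjusted p under 0.05), against 11.05% of all gene tests. For Lep, EKO minus WT at 22 weeks was -4.95, EKO/hA-I minus EKO at 22 weeks 2.81, and 22 minus 6 weeks in WT 5.51.

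EKO/hA-I minus EKO at 22 weeks was 2.44 for Adipoq, 2.99 for Retn, 2.55 for Cfd and 1.13 for Rbp4. For the droplet and lipolysis genes it was 2.47 for Plin1, 2.28 for Fabp4, 2.32 for Lipe and 2.80 for Pnpla2. EKO/hA-I minus WT at 22 weeks was 3.19 for Cfd, 2.18 for Fabp4 and 1.68 for Pnpla2.

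Within EKO, the difference at 22 minus that at 6 weeks was -1.12 for Rbp4, -1.63 for Plin1, -1.55 for Lipe and -1.90 for Pnpla2. In EKO/hA-I 0 of the 9 genes were called there (3.10% of all genes; limma, 7 of 9 at an unadjusted p under 0.05). Groups held 2 or 3 libraries, too few to test a single library as an outlier.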

How the results depend on the processing

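Of 60 calls of the 9 genes, 22 were kept when each library was left out in turn, 7 under all other alternatives and 4 under both. The 4 were the lower Lep and the lower Rbp4 of EKO against WT on WD at 22 weeks, the Lep diet difference of EKO minus WT at 22 weeks, and that of 22 minus 6 weeks in WT. The brown fat term ended 45 calls and the pan-adipocyte term 41. Comparing the groups alone ended 18, the term for Y-linked transcripts 2, and the block, rescaling and each other pseudocount 1 each. Without a filter 0 were lost.

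Calls numbered 5 for EKO against WT (13.9% of the tests of the 9 genes, against 11.9% of the tests of all genes), with 9 under the brown fat term, 8 under the replicate block and 3 with the compared groups alone. For EKO/hA-I against EKO they were 10 (27.8% against 11.9%), with 1 under the brown fat term and 0 under the pan-adipocyte term. For EKO/hA-I against WT they were 7 (19.4% against 12.2%), with 0 under the brown fat term and 4 with the groups alone. For WD against chow they were 11 (20.4% against 9.96%), with 7 under the brown fat term, 4 under the pan-adipocyte term and 7 with the groups alone. For 22 against 6 weeks they were 7 (13.0% against 7.89%), with 2 under the pan-adipocyte term. For the averaged diet contrasts they were 2 (11.1% against 9.76%), with 4 under the term for Y-linked transcripts and 1 with the groups alone. For differences of differences they were 18 (22.2% against 11.05%), with 11 under the brown fat term and 4 under the pan-adipocyte term. Why each count moved was not tested. Leaving out 1 library gave 3 to 8, 6 to 12, 4 to 7, 7 to 13, 2 to 9, 0 to 3 and 14 to 26 calls in that order of families.

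Lep relative to the index gave -1.89 at 6 weeks with the brown adipocyte list as index (main -1.34), which passed 0.05. Leaving out 1 library gave -1.66 to -1.02 there, past 0.05 in 4 cases, and 0.49 to 0.88 at 22 weeks. With the brown fat term, the diet difference of Adipoq in EKO/hA-I at 22 weeks turned to -0.12 and that of Pnpla2 between EKO/hA-I and WT to -0.41. No label pairs libraries by replicate number, and the block ended 1 call, that of Lep between the diets in EKO at 22 weeks (adjusted p = 0.055). Lep rested on as few as 14 inferred reads, in WT WD 6 weeks replicate 1, which limits its precision there.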
